A study of Homo sapiens with 22 samples.

Results

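Adhesion genes of the cadherin, immunoglobulin and integrin families were followed through called ATAC-seq peaks in multiple myeloma cell lines. ATAC-seq marks open chromatin by where a transposase can cut, and a peak is a stretch that the caller scored above background. The 10 genes were chosen by name from 19970 protein-coding genes: the cadherins CDH1, CDH2 and DSG2, the immunoglobulin superfamily members ICAM1, VCAM1, NCAM1 and CADM1, and the integrin subunits ITGA4, ITGB1 and ITGB3. Every peak called within a gene's body or 20 kb either side was taken, in hg38 coordinates, which gave 46 of the 96166 regions made by merging the peaks of all 22 libraries. The value of a gene or region in a library is its covered length, the number of its bases under called peaks.

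KMS11 and KMS34 are myeloma lines with the genotype t(4;14), a translocation that places the histone methyltransferase gene NSD2 under immunoglobulin control. The libraries were KMS34 and KMS11 in NSD2LDD, a compound that degrades NSD2, at days 4 and 10, and KMS11 libraries of the genotype labelled TKO, at day 0 with no treatment. They were set against both lines in the vehicle DMSO at days 4 and 10 and against untreated KMS11 at day 0. Untreated KMS34 at day 0 was used with DMSO libraries to compare the lines. Each of the 11 groups held 2 libraries, numbered as duplicates. Neither the meaning of TKO, nor the concentration of NSD2LDD, nor whether a line was 1 clone is given in the sources used here.

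Cadherins hold like cells together through calcium-dependent contacts, classical ones at adherens junctions and desmogleins at desmosomes. Immunoglobulin superfamily adhesion molecules bind one another or integrins on the facing cell, and ICAM1 and VCAM1 are induced by NF-kappaB in many cell types. Integrins are pairs of an alpha and a beta chain, and the pair of ITGA4 and ITGB1 lets myeloma cells hold to VCAM1 on bone marrow stroma and to fibronectin.

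The lists held 24979 to 52518 peaks, and their covered length was 11.5 to 31.8 Mb. They carry no read counts, so depth is unknown and a region without a called peak is not shown to be closed. Replicate 2 of KMS11 day 0 had the shortest list and the least covered length. The duplicates are not said to be separate cultures, and the spread behind each p-value, that between these libraries, may be technical. Lines are bulk samples, in which fewer cells with an open region and less opening per cell cannot be told apart. Of 10 plasma cell marker genes, 8 were covered in all libraries, but so were 3 of 5 B cell, 2 of 6 T and NK cell, 2 of 5 myeloid, 2 of 5 epithelial and 4 of 6 stromal and endothelial markers. Whether a marker was covered at all therefore did not separate cell types here. Summed covered length of the plasma cell markers was at least 9930 bp in KMS11 and 20446 bp in KMS34. The other sets reached at most 8936 bp (stromal and endothelial) and 15252 bp (B cell) in these lines. The plasma cell set also holds the most genes, and the sums were not tested.

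Start sites of 3 genes carry much of what follows, and the 250 bases before each are printed as RefSeq gives them for GRCh38.p14, on the gene's own strand. ICAM1 (chr19:10270870-10271119, plus strand) is shown because its start site was uncovered in KMS11 day 0 alone among the groups. VCAM1 (chr1:100719492-100719741, plus strand) is shown because its start site was uncovered in every library. CDH2 (chr18:28177131-28177380, minus strand) is shown because its start site was less covered in TKO. Capitals mark the letters GGNNNTTCC on either strand, the core of an NF-kappaB motif, in ICAM1 and VCAM1, and the GC box GGGCGG on either strand in CDH2.
ICAM1: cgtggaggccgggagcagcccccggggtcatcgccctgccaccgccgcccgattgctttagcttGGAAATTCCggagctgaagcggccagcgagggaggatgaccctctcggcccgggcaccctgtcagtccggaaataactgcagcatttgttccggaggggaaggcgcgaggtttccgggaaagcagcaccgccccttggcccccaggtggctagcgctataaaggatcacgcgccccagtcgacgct
VCAM1: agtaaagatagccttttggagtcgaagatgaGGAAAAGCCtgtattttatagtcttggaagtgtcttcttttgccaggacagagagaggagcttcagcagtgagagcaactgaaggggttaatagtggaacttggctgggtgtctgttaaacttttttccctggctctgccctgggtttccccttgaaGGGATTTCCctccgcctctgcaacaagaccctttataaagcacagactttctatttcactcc
CDH2: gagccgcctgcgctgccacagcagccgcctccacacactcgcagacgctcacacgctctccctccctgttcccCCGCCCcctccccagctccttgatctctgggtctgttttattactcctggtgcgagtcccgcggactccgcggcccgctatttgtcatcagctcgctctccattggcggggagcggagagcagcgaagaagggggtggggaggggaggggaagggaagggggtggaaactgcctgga
The ICAM1 stretch held 1 NF-kappaB-like match, 186 bases before the start, and the VCAM1 stretch held 2, at 62 and 219 bases before it. At least 1 match occurs in 17.1% of 34961 RefSeq promoters and at least 2 in 1.89%. A GC box occurs in 42.7%. CDH2 held 1, ICAM1 held 2 that are not marked, and VCAM1 held 0. In the 300 bases that also take in the first 50 of the gene, VCAM1 held 2 CpG pairs, CDH2 17 and ICAM1 23, where the median promoter held 11. A match of letters is a description and not a bound site.

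Of the 46 regions, 10 were called in all 22 libraries, 13 in both lines but not every library, 11 in KMS11 only, 10 in KMS34 only and 2 in 1 library. As shares these were 21.7%, 28.3%, 23.9%, 21.7% and 4.35% of the regions at these genes, against 14.4%, 27.4%, 9.92%, 20.2% and 28.1% of all merged regions. CADM1 held 8 of the 11 KMS11-only regions. Start or end regions of CDH2, DSG2, CADM1, ITGA4 and ITGB1 were in all libraries, as were 3 regions at CDH1, 1 in MRPL4 beside ICAM1 and 1 at EFCAB13 beside ITGB3.

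**Figure D1:**
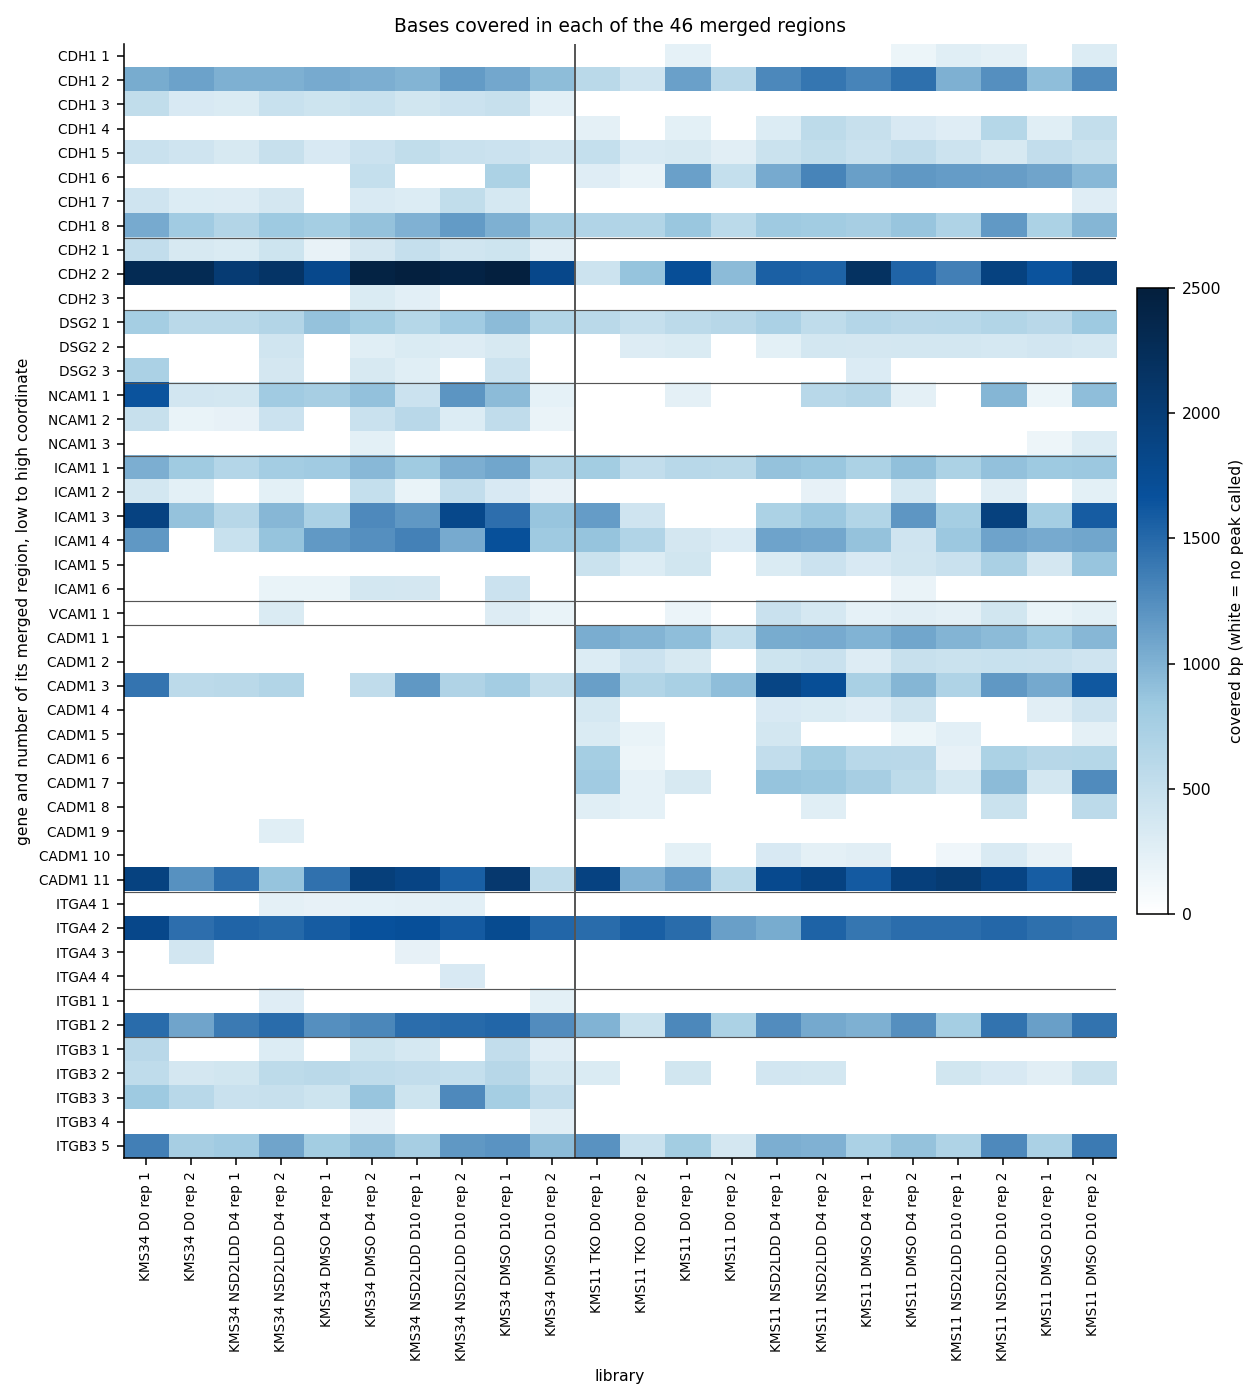
Covered length in bp (colour, white where no peak was called) in each of the 46 merged regions (rows, numbered by gene from low to high coordinate) and each of the 22 libraries (columns, KMS34 left of the line and KMS11 right of it). The 8 KMS11-only regions of CADM1 stand as a block, and ICAM1 region 3 is white in both KMS11 day 0 libraries.

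The comparison of the lines gave the most calls at these genes. Tests used limma on log2 values of covered length, after adding 200 bp for genes or 100 bp for regions and scaling by library, with Benjamini-Hochberg adjustment over all 18223 genes or 69187 regions tested. All 10 genes and 44 of the 46 regions entered, the other 2 having been called in 1 library. In KMS34 against KMS11 (6 day 0 and DMSO libraries each), 4 of 10 genes were called, where 40.8% of all genes were (23.3% higher and 17.5% lower): ITGB3 rose, and CDH1, VCAM1 and CADM1 fell. Of the 44 regions 19 were called, 7 higher and 12 lower in KMS34, where 34.3% of all regions were (20.0% higher and 14.2% lower). Both shares lie near their backgrounds. Below, counts of libraries with a called region take in every library of a line. The p of this comparison still sets only the 6 day 0 and DMSO libraries of each line against one another. In DMSO libraries alone, a comparison added after the data were seen, 3 of 10 genes (1 higher, 2 lower) and 15 of 44 regions (5 higher, 10 lower) were called, where 31.9% of all genes (18.4% higher, 13.6% lower) and 29.5% of all regions (17.6% higher, 11.9% lower) were. Without scaling, 5222 of all genes were called higher and 930 lower in KMS34, against 4255 and 3183 with it. Counting a region only where 50% or more of it was covered left 8 of the 19 regions, ending the calls of CDH1 regions 1 and 4, NCAM1 region 2, ICAM1 regions 3 and 5, VCAM1 region 1, CADM1 regions 3, 7 and 10 and ITGB3 regions 1 and 3. Lists of equal length ended those of CDH1 region 1, ICAM1 region 3 and CADM1 regions 2 and 10.

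In TKO against KMS11 day 0 (2 libraries each), 3 of 10 genes were called, where 5.40% of all genes were (1.53% higher and 3.87% lower): CDH1 and CDH2 fell and ICAM1 rose. Of the 44 regions 4 were called, 2 in each direction, where 4.07% of all regions were (0.967% higher and 3.10% lower). The median log2 difference was -0.43 over the 10 genes and -0.04 over all genes tested. Against the day 0 and DMSO libraries of KMS11 together, a comparison added after the data were seen, 2 of 10 genes were called (CDH1 and CDH2, both lower), where 6.16% of all genes were (0.966% higher and 5.20% lower). There 2 of 44 regions were called, both lower, where 5.42% of all regions were (0.861% higher and 4.55% lower). Without scaling, 29 of all genes were called higher and 156 lower in TKO against day 0, where scaling gave 279 and 705.

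NSD2LDD against DMSO (4 libraries each, both days together) gave 0 of 10 genes called in KMS34, where 0.0165% of all genes were, and 0 of 10 in KMS11, where 0.0110% were. No region was called in either line, where 0.986% of all regions were called in KMS34 and 0.0694% in KMS11. The test of a difference in effect between the lines called 0 of 10 genes and 0 of 44 regions, where it called 0% of genes and 0.00578% of regions. At an unadjusted p under 0.05 the limma counts were 0 of 10 genes in KMS34, in KMS11 and in the difference, where 6.59%, 3.85% and 3.39% of all genes passed. They were 3 of 44 regions in each of these, where 9.88%, 4.80% and 5.99% of all regions passed, so the region counts lie near the background.

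**Figure D2:**
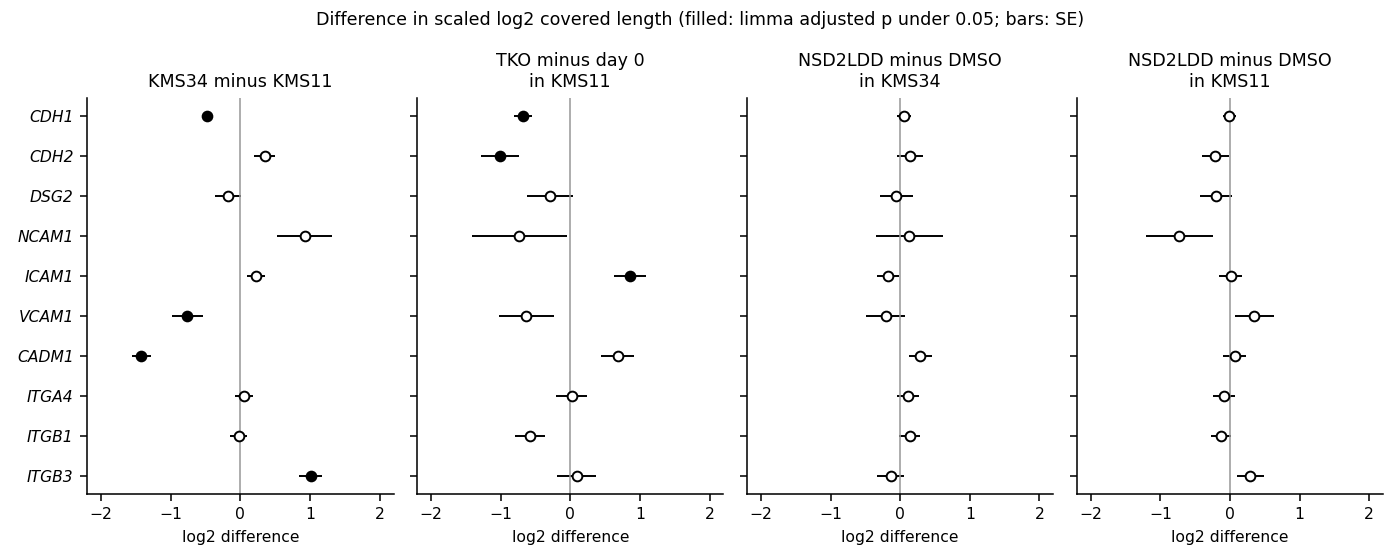
Log2 difference in scaled covered length (horizontal axis, point) with its SE (bar) for each gene (rows) in 4 comparisons, filled where the limma adjusted p was under 0.05. Filled points are CDH1, VCAM1, CADM1 and ITGB3 for KMS34 minus KMS11, CDH1, CDH2 and ICAM1 for TKO minus day 0, and none for NSD2LDD.

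CDH1 encodes E-cadherin, the classical cadherin of epithelial adherens junctions. Its 8 regions lay between 15.3 kb inside the gene's low-coordinate end and a TANGO6 region beyond the high end, and no peak was called at the low end itself. In TKO the gene had 2266 and 1599 covered bp, against 3900 and 1944 bp in KMS11 day 0. The ranges overlap on this raw scale. Relative to each library's own scale CDH1 fell by 0.68 log2 (SE 0.13, limma adjusted p = 0.00445). Without scaling the difference was -0.49 and not called (adjusted p = 0.739).

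At CDH1 a region inside the gene passed in TKO. Region 2 (chr16:68756168-68757620) had 590 and 418 bp in TKO, against 1114 and 596 bp in day 0, and was lower in both TKO libraries than in the other 10 KMS11 libraries. It fell by 0.76 log2 (SE 0.15, limma adjusted p = 0.00565). The call was lost without KMS11 day 0 replicate 1 (adjusted p = 0.0527), without TKO replicate 2 (adjusted p = 0.0538), without scaling (0.274) and with limma without trend and robust (0.0645). The strongest peak there had the authors' -log10 q of 4.94 and 6.82 in TKO, against 15.2 and 23.6 in day 0. Region 6 (chr16:68781826-68783142) had 280 and 190 bp in TKO, against 1119 and 503 bp in day 0, a log2 difference of -1.51 (SE 0.73) that did not pass (limma adjusted p = 0.447). Region 8, inside TANGO6, had 670 and 664 bp in TKO, against 859 and 583 bp in day 0. KMS11 in DMSO had 914 to 1453 bp at region 2 and 950 to 1180 bp at region 6. The TKO lists covered 19.3 and 13.3 Mb in all, against 17.9 to 26.7 Mb in these DMSO lists. On the scaled values, region 6 did not pass against day 0 and DMSO together (-1.58 log2, limma adjusted p = 0.203).

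Between the lines CDH1 had regions called in KMS34 alone and others called in KMS11 alone. The gene covered 2317 to 4070 bp in KMS34 (median 3230), against 1944 to 4725 bp in KMS11 (median 4024.0), a scaled log2 difference of -0.48 (SE 0.08, limma adjusted p = 8.36e-05) that was not called without scaling (-0.22, adjusted p = 0.365). Region 3 (chr16:68760784-68761322) was called in 10 of 10 KMS34 and 0 of 12 KMS11 libraries. Region 4 (chr16:68764541-68765401) was called in 0 of 10 KMS34 and 10 of 12 KMS11 libraries. Region 6 was called in 2 of 10 KMS34 and 12 of 12 KMS11 libraries, and it was uncovered in all 4 NSD2LDD libraries of KMS34. Region 1, called in 0 of 10 KMS34 and 5 of 12 KMS11 libraries, passed between the lines (limma adjusted p = 0.0244), but not without KMS11 DMSO day 10 replicate 2 (0.0762), DMSO day 4 replicate 2 (0.0793) or day 0 replicate 1 (0.0742), nor without KMS34 DMSO day 10 replicate 1 (0.0593), DMSO day 4 replicate 2 (0.0532) or day 0 replicate 1 (0.0566). Regions 2 and 5 were called in every library of both lines.

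CDH2 encodes N-cadherin, the classical cadherin of neural and mesenchymal cells, reported on the myeloma cells of some patients with t(4;14). Its start-site region 2 (chr18:28175986-28178531) was called in all 22 libraries and took all of the gene's covered length in KMS11. The promoter within it (chr18:28177081-28177380) was covered in 21 libraries, among them 1 of the 2 TKO libraries. Region 2 had 432 and 876 bp in TKO. The gene had 1707 and 928 bp in KMS11 day 0, and both TKO values lie below all other libraries. The gene fell by 1.02 log2 (SE 0.27, limma adjusted p = 0.0351) and the region fell by 1.06 log2 (SE 0.27, adjusted p = 0.0414). In the 1 kb after the start site TKO had 0 and 112 covered bp, against 409 and 0 bp in day 0 and 339 to 1000 bp in KMS11 DMSO. The strongest peak had the authors' -log10 q of 4.79 and 9.84 in TKO, against 10.1 and 15.8 in day 0. A second listed CDH2 promoter, inside the gene (chr18:28036592-28036891), was covered in 0 of the 22 libraries.

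The CDH2 call against 2 day 0 libraries changed with the libraries left out and the settings. For the gene it was lost without KMS11 day 0 replicate 1 (limma adjusted p = 0.113), without day 0 replicate 2 (0.0914) and without TKO replicate 1 (-0.42 log2, 0.461). It was also lost with lists of equal length (-1.81 log2, 0.0898), without scaling (0.355), with 1000 bp added (-0.60 log2, 0.0562), in a fit of KMS11 alone (0.103) and with limma without trend and robust (0.0679). For CDH2 region 2, leaving out 1 library ended the call in 19 of 22 cases, with adjusted p of 0.0527 to 0.441. Against day 0 and DMSO libraries together the gene's log2 difference was -1.002 (SE 0.22, limma adjusted p = 0.00876) and that of the region -1.14 (adjusted p = 0.00489).

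In KMS34 the same gene had a further region inside it. The start-site region did not differ past the threshold between the lines (0.23 log2, SE 0.16, limma adjusted p = 0.282). The gene's covered length was 1997 to 3105 bp in KMS34 (median 2724), against 928 to 2173 bp in KMS11 (median 1676), a scaled log2 difference of 0.35 (SE 0.16) that did not pass (limma adjusted p = 0.0885). It did pass without KMS11 DMSO day 4 replicate 1 (0.0406), TKO replicate 1 (0.0168) or TKO replicate 2 (0.0187), without scaling (0.61 log2, 0.0169) and with 1000 bp added (0.0385). Region 1 (chr18:28080740-28081300), 95.8 kb inside the gene, was called in 10 of 10 KMS34 and 0 of 12 KMS11 libraries (limma adjusted p = 1.33e-06). Within 1 kb after the start site KMS34 had 404 to 1000 covered bp (median 912.5), against 0 to 1000 bp in all KMS11 libraries (median 385).

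DSG2 encodes desmoglein 2, the most widely expressed desmosomal cadherin. Its start-site region (chr18:31497734-31498756) was called in all 22 libraries. The gene had 588 and 781 bp in TKO, against 890 and 617 bp in day 0. Across the lines it had 588 to 1711 bp in KMS34, against 617 to 1315 bp in KMS11. Neither difference passed (limma adjusted p = 0.764 and 0.495), and the ranges overlap in both. With 5 kb either side the line difference passed (-0.33 log2, adjusted p = 0.0487).

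**Figure D3:**
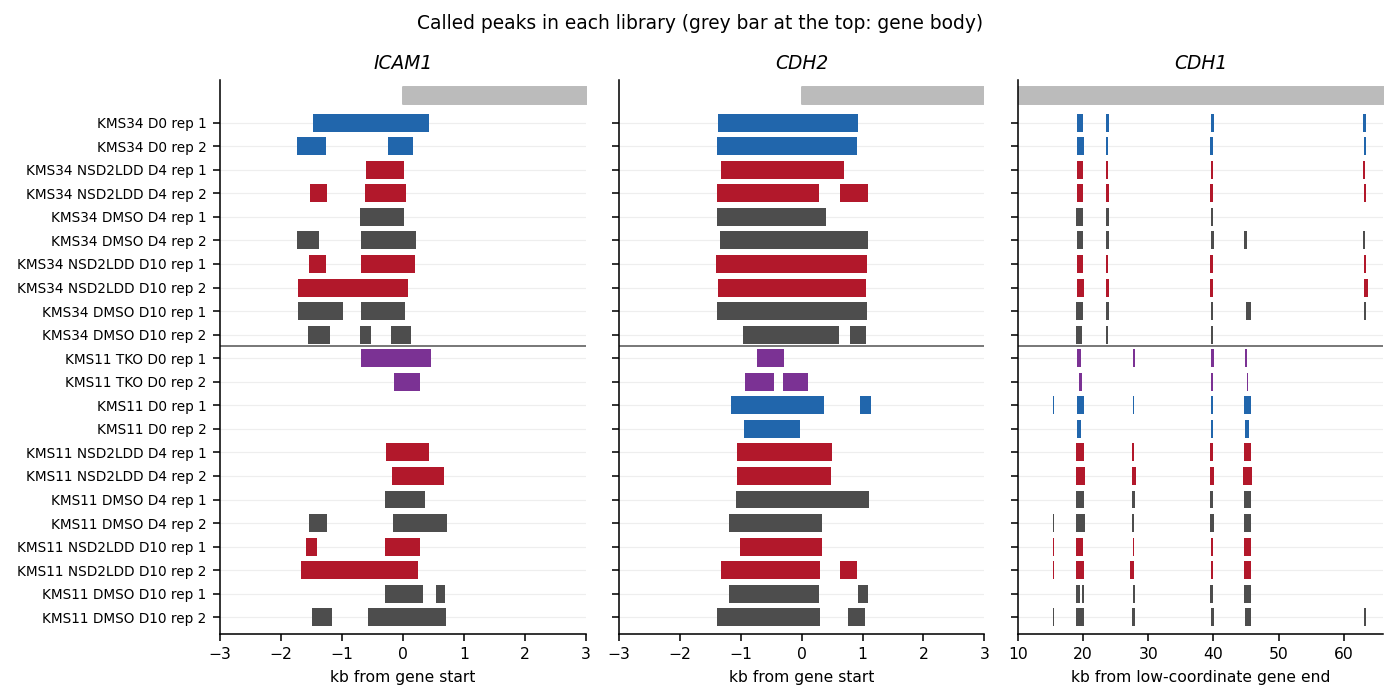
Called peaks (bars) in each library (rows, KMS34 above the line and KMS11 below it; red NSD2LDD, purple TKO, grey DMSO, blue day 0) around the ICAM1 and CDH2 starts and along CDH1, in kb from the gene start or, for CDH1, from its low-coordinate end. ICAM1 has no bar in the 2 KMS11 day 0 rows, CDH2 bars are short in the TKO rows, and the CDH1 columns differ between lines.

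ICAM1 encodes the ligand of the leukocyte integrin LFA-1, and it is a standard NF-kappaB target. The gene and its neighbours had 3265 and 1909 covered bp in TKO, against 1383 and 891 bp in KMS11 day 0. It rose by 0.85 log2 (SE 0.23, limma adjusted p = 0.0336). The call was lost without KMS11 day 0 replicate 1 (adjusted p = 0.0852), without day 0 replicate 2 (0.118) and without TKO replicate 1 (0.233). It was also lost with lists of equal length (0.273), without scaling (0.457), with 1000 bp added (0.0820), with 50 kb either side (0.52 log2, 0.0618) and with limma without trend and robust (0.0715). Region 3 (chr19:10269382-10271847), which holds the start site and the printed sequence, had 1145 and 418 bp in TKO and was uncovered in both day 0 libraries (limma adjusted p = 0.000293). This call held without each of these 4 libraries, but not with lists of equal length (2.87 log2, SE 1.43, adjusted p = 0.381), nor where 50% of the region had to be covered (-0.067, adjusted p = 0.991).

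At ICAM1 the KMS11 day 0 pair, rather than TKO, stood apart from the other libraries. Region 3 had 704 to 1920 bp in the 4 NSD2LDD libraries of KMS11, against 661 to 1589 bp in its 4 DMSO libraries, and it was called in 10 of 10 KMS34 libraries. TKO lies within the range of those libraries or below it. Against day 0 and DMSO together the gene differed by 0.22 log2 (limma adjusted p = 0.651) and region 3 by 0.81 (adjusted p = 0.228). Of 19196 regions called in all 10 other KMS11 libraries, 153 (0.797%) were called in neither day 0 library, and 2 of 19 such regions at these genes were (10.5%), ICAM1 region 3 and CADM1 region 6. Whether list length, culture or genotype underlies the missing peaks was not tested.

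The line difference at ICAM1 turned on the same day 0 libraries. Region 3 was higher in KMS34 by 1.13 log2 with day 0 included (limma adjusted p = 0.000947) and by 0.01 in DMSO libraries alone (adjusted p = 0.972). With lists of equal length its difference turned to -1.61 (adjusted p = 0.155). Where called, its peaks sat differently around the start. In the 1 kb after the start site KMS34 had 15 to 425 covered bp (median 111) over 10 libraries, against 254 to 728 bp in KMS11 (median 443.5, 10 libraries). In the 1 kb before it KMS34 had 250 to 1000 bp (median 684.5), against 145 to 1000 bp in KMS11 (median 294). These ranges overlap, and the shape of the peaks was described after it was seen, without a test. ICAM1 region 5 (chr19:10291840-10292711), inside the neighbouring ICAM5, was called in 0 of 10 KMS34 and 11 of 12 KMS11 libraries (limma adjusted p = 1.44e-05). Over the whole window the lines did not differ past the threshold (0.22 log2, SE 0.13, adjusted p = 0.197), but under other settings they did, in both directions. The gene passed as higher in KMS34 without KMS34 day 0 replicate 2 (adjusted p = 0.0323) and with 5 kb either side (0.55 log2, adjusted p = 0.0244). With lists of equal length it passed as lower (-0.85 log2, SE 0.26, adjusted p = 0.0198).

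VCAM1 encodes the vascular and stromal ligand of the ITGA4 and ITGB1 pair. No peak covered its promoter in any of the 22 libraries, and the printed sequence holds 2 NF-kappaB-like matches. Its 1 region (chr1:100736705-100737243) lies 17.0 kb inside the gene, 1.8 kb from its far end. It was uncovered in both TKO libraries, against 171 and 0 bp in KMS11 day 0 (limma adjusted p = 0.466 for the gene). KMS34 had 0 to 289 bp over day 0 and DMSO libraries (2 of 6 covered), against 0 to 257 bp in KMS11 (5 of 6 covered). The gene passed between the lines with a log2 difference of -0.76 (SE 0.23, limma adjusted p = 0.0121), but not in DMSO libraries alone (adjusted p = 0.0872) or without scaling (0.113), and with 50 kb either side the difference turned to 0.41 (0.180). Its region passed with -0.97 (adjusted p = 0.0216), but not without KMS11 day 0 replicate 1 (0.0661) or KMS34 day 0 replicate 1 (0.0505), and it turned to 0.22 where 50% of the region had to be covered (0.723).

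NCAM1 encodes CD56, a neural adhesion molecule that many myelomas express and normal plasma cells mostly lack. Its low-coordinate end region (chr11:112961204-112963645) was called in 10 of 10 KMS34 and 7 of 12 KMS11 libraries. It was uncovered in both TKO libraries, against 227 and 0 bp in day 0. Over day 0 and DMSO libraries the gene had 400 to 2125 bp in KMS34, against 0 to 1211 bp in KMS11. The log2 difference of 0.92 (SE 0.39) did not pass (limma adjusted p = 0.0693) and passed without KMS11 DMSO day 4 replicate 1 (0.0482) or KMS34 day 0 replicate 2 (0.0419), and with peaks of −log10 q of 5 or more (1.27 log2, 0.0299). It also passed when any 1 of the 4 NSD2LDD libraries of KMS11, which enter only the shared spread, was left out (0.0410 to 0.0481). A second region (chr11:112969013-112969610), 7.6 kb inside the gene, was called in 9 of 10 KMS34 and 0 of 12 KMS11 libraries (adjusted p = 0.00242), and did not pass with peaks of −log10 q of 5 or more (0.134).

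CADM1 encodes a cell adhesion molecule that binds itself and related proteins across cell contacts. It showed the largest difference between the lines among the 10 genes. Covered length was 1065 to 3325 bp in KMS34 (median 2146), against 2003 to 8252 bp in KMS11 (median 5456). At day 0 alone these raw lengths overlapped, with 3325 and 1795 bp in KMS34, against 3725 and 2003 bp in KMS11. On the scaled log2 scale the difference of CADM1 was -1.42 (SE 0.14, limma adjusted p = 2.62e-07), and -1.78 in DMSO libraries alone (adjusted p = 3.92e-07). The high-coordinate end of the gene did not share in this. Its region 11 (chr11:115502902-115505056) was called in every library, with 554 to 2068 bp in KMS34, against 583 to 2155 bp in KMS11.

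The 8 KMS11-only regions of CADM1 lay inside the gene, 6.6 to 309.4 kb from that end. Region 1 (chr11:115193837-115194982) had 507 to 1080 bp in 12 of 12 KMS11 libraries and was uncovered in 10 of 10 KMS34 libraries (limma adjusted p = 1.96e-09). Regions 2 and 7 were each called in 0 of 10 KMS34 and 11 of 12 KMS11 libraries, and region 6 in 0 of 10 KMS34 and 10 of 12 KMS11 libraries (adjusted p = 2.5e-05, 1.95e-05 and 1.77e-05). Region 4 was called in 0 of 10 and 7 of 12, and also passed (0.000468). Region 3 (chr11:115221594-115223553) was called in 9 of 10 KMS34 and 12 of 12 KMS11 libraries, with a log2 difference of -1.08 (adjusted p = 0.0165), though not without KMS34 day 0 replicate 2 (0.0519). Region 10 passed at 0.0486, and leaving out 1 library ended its call in 19 of 22 cases. Where KMS34 is uncovered, the fitted difference and its p depend on the bases added, so no fold is given.

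In TKO, CADM1 had 6875 and 3862 bp, against 3725 and 2003 bp in KMS11 day 0, and the groups do not overlap. Such separation held for 3 of the 10 genes (CDH2, ICAM1 and CADM1), where 21.2% of all genes showed it. CADM1 did not pass (0.68 log2, SE 0.24, limma adjusted p = 0.113), but it did with peaks of −log10 q of 5 or more (0.88 log2, 0.0380) and in a fit of KMS11 alone (0.0189). Region 6 (chr11:115263927-115264793) had 769 and 155 bp in TKO and was uncovered in both day 0 libraries (adjusted p = 0.0159). That call was lost without day 0 replicate 1 (0.0789), without TKO replicate 1 (0.229) and with 300 bp added (0.0598). As at ICAM1, the other 8 KMS11 libraries were covered there, with 208 to 789 bp in NSD2LDD and 603 to 627 bp in DMSO. Against day 0 and DMSO together region 6 differed by 0.44 (adjusted p = 0.890).

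**Figure D4:**
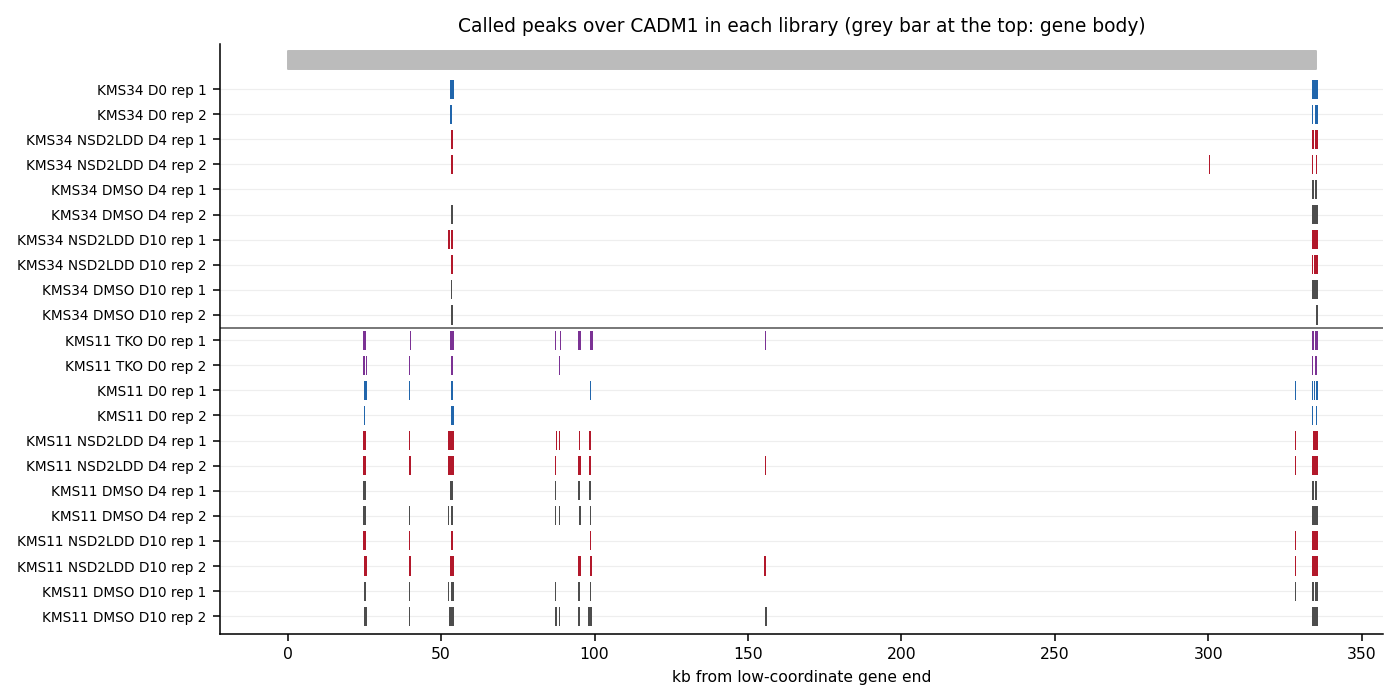
Called peaks (bars) over CADM1 in each library (rows, KMS34 above the line and KMS11 below it; red NSD2LDD, purple TKO, grey DMSO, blue day 0), in kb from the gene's low-coordinate end. The region at the high-coordinate end has a bar in all 22 rows, and region 1 at 24.6 kb has one in the 12 KMS11 rows alone.

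ITGA4 encodes the alpha chain that pairs with ITGB1 to bind VCAM1 and fibronectin. Its start-site region (chr2:181456643-181458547) was called in all 22 libraries and was among the stronger peaks of each, at the 77.7th to 95.8th percentile of the library's -log10 q. The gene had 1477 and 1565 bp in TKO, against 1481 and 1124 bp in KMS11 day 0, which did not pass except with 50 kb either side (0.62 log2, limma adjusted p = 0.0407). Over day 0 and DMSO libraries it had 1522 to 1886 bp in KMS34, against 1124 to 1481 bp in KMS11. These ranges do not overlap, as for 1 of the 10 genes and 13.5% of all genes, but after scaling the log2 difference was 0.05 (SE 0.13, limma adjusted p = 0.786).

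ITGB1 encodes the beta chain shared by many integrins. Its start-site region (chr10:32957374-32958910) was also called in all 22 libraries. The gene had 995 and 452 bp in TKO, against 1280 and 708 bp in day 0, a log2 difference of -0.58 (SE 0.21) that did not pass (limma adjusted p = 0.132). KMS34 had 1091 to 1521 bp, against 708 to 1434 bp in KMS11 (-0.02 log2, SE 0.12, adjusted p = 0.899). Both chains of this pair had a called region at the start-site end of the gene in every library, whereas their ligand gene VCAM1 had one in none. A second listed ITGB1 promoter, inside the gene (chr10:32935509-32935808), was covered in 0 of the 22 libraries.

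ITGB3 encodes the beta chain of the vitronectin receptor and of the platelet fibrinogen receptor. It was the gene that rose in KMS34, with 1732 to 3334 bp (median 2666), against 369 to 1836 bp in KMS11 (median 934). The scaled log2 difference was 1.01 (SE 0.16, limma adjusted p = 7.37e-05). Region 3 (chr17:47278775-47280066), 24.9 kb inside the gene, was called in 10 of 10 KMS34 libraries with 425 to 1275 bp, and in 0 of 12 KMS11 libraries (adjusted p = 1.89e-07). The low-coordinate end region 2 (chr17:47253660-47254325) was called in 10 of 10 KMS34 and 8 of 12 KMS11 libraries (adjusted p = 0.00576). Region 1, before that end, was called in 6 of 10 KMS34 and 0 of 12 KMS11 libraries (adjusted p = 0.0452), and leaving out 1 library ended its call in 16 of 22 cases. TKO had 1534 and 465 bp, against 1184 and 369 bp in day 0 (0.09 log2, adjusted p = 0.906).

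**Figure D5:**
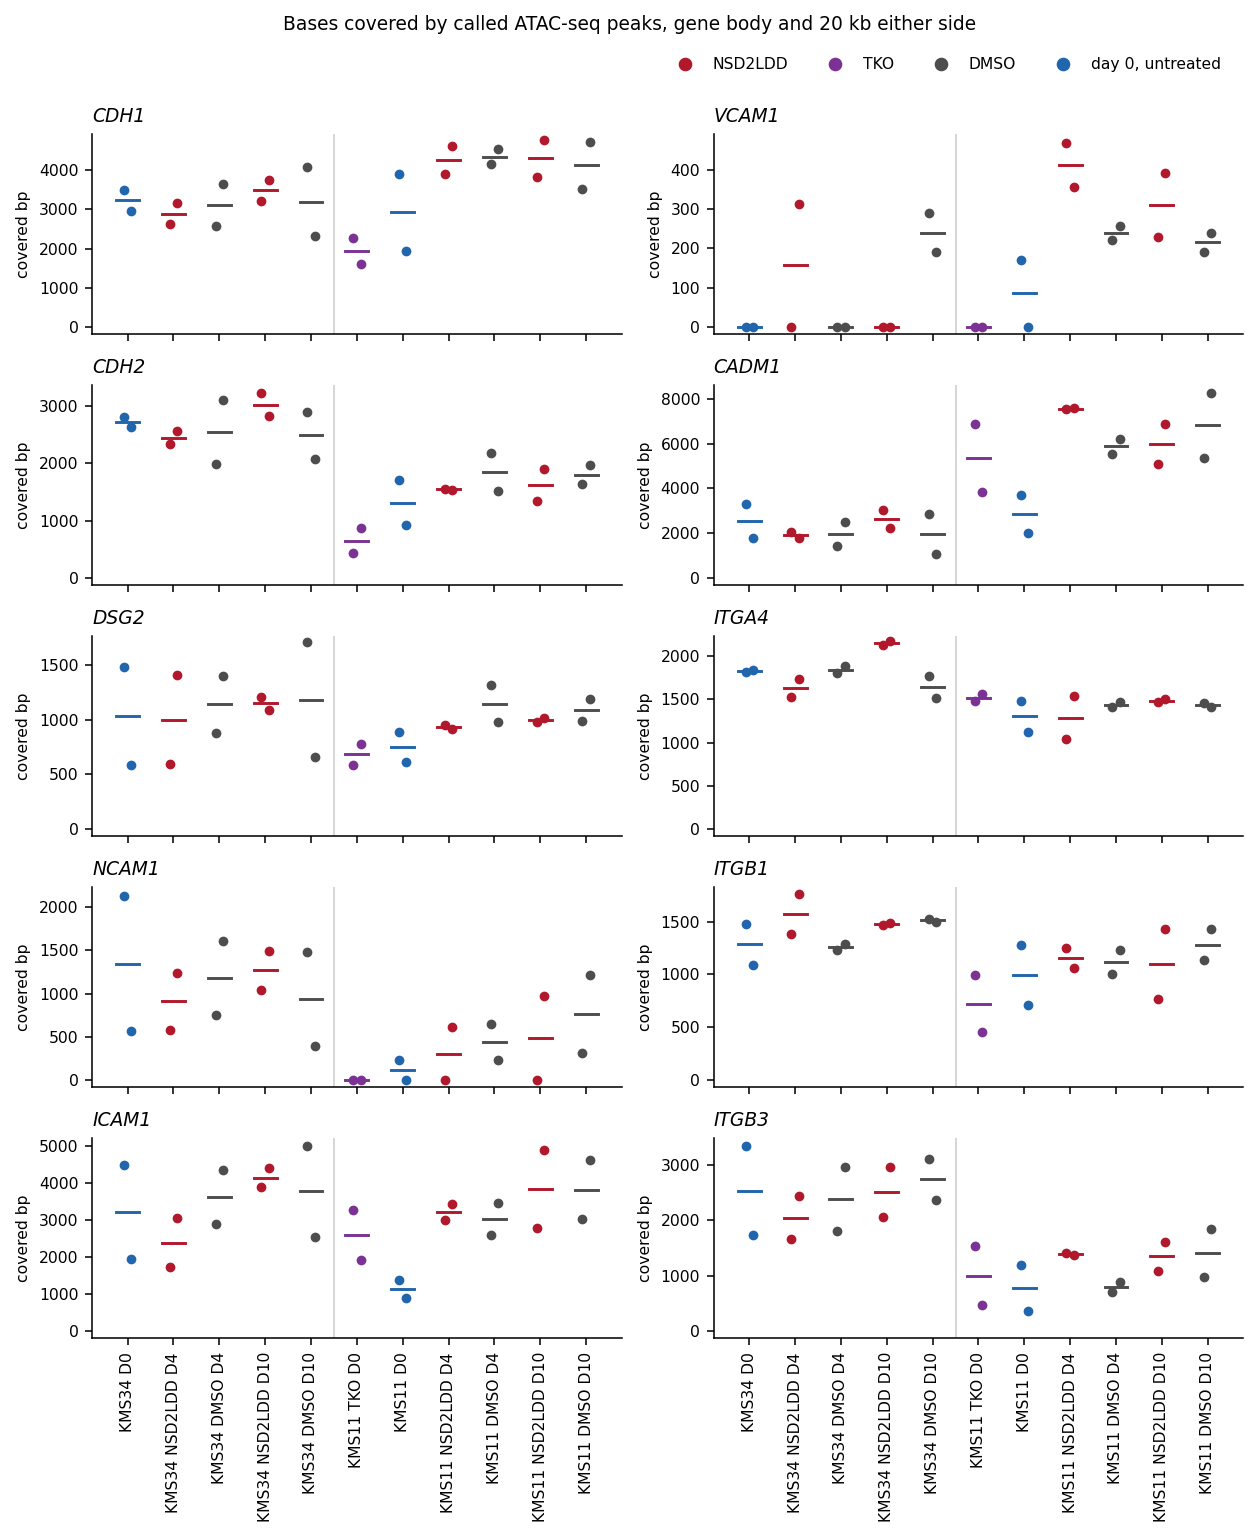
Covered length in bp (vertical axis, points; the line is the mean of the 2 libraries) of each gene in the 11 groups, KMS34 left of the grey line and KMS11 right of it. CADM1 sits lower and ITGB3 higher in KMS34, and CDH2 is lowest in the TKO group. With both days pooled, NSD2LDD and DMSO ranges overlap for every gene in both lines. Within a single day some are separate, such as CADM1 in KMS11 at the earlier day and VCAM1 in KMS34 at the later day.

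With both days together, NSD2LDD and DMSO ranges were separate for 0 of the 10 genes in each line. Of all genes, 0.960% were separate in KMS34 and 0.818% in KMS11. Averaged over days 4 and 10, the gene-wise log2 differences lay between -0.21 and 0.29 in KMS34 and between -0.73 and 0.35 in KMS11. NCAM1 had the lowest of these in KMS11, with 0 to 975 bp in NSD2LDD (2 of 4 libraries covered), against 227 to 1211 bp in DMSO (4 of 4 covered), -0.73 log2 (SE 0.48). CADM1 had the highest in KMS34, with 1805 to 3044 bp in NSD2LDD, against 1065 to 2845 bp in DMSO, 0.29 log2 (SE 0.17). At ICAM1 the differences were -0.18 (SE 0.16) in KMS34 and 0.01 (SE 0.16) in KMS11. Single days, with 2 libraries per group, were not tested and spread wider. In KMS34 the log2 difference of VCAM1 was 0.77 at day 4 and -1.18 at day 10. In KMS11 the extremes were 0.62 for ITGB3 at day 4 and -0.83 for NCAM1 at day 10.

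No single region passed under NSD2LDD in the fit to all libraries. In KMS11, CADM1 region 4 had 0, 0, 336 and 315 bp in NSD2LDD, against 254, 415, 274 and 408 bp in DMSO (limma adjusted p = 0.494). In KMS34, CDH1 region 6 was uncovered in the 4 NSD2LDD libraries, against 704, 0, 0 and 506 bp in DMSO (adjusted p = 0.377). Without KMS34 DMSO day 10 replicate 2 CDH1 region 6 was called (adjusted p = 0.0450), and without KMS34 DMSO day 4 replicate 2 CADM1 region 3 was (adjusted p = 0.0068), 1 region each.

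Of 61 other adhesion genes, listed with earlier results of these data known, 60 were tested. They are not wholly separate from the genes above. CDH3 reaches into the CDH1 window, DSG3 into that of DSG2, and ICAM4 and ICAM5 into that of ICAM1. Peaks there can count for both genes, so the shares below are not those of an independent set. In TKO against day 0, 4 rose and 3 fell (limma, over all genes), 11.7% of the 60 beside 5.40% of all genes (1.53% higher and 3.87% lower). Their median log2 difference was -0.06, beside -0.04 over all genes. NCAM2, a neural relative of NCAM1, was uncovered in both TKO libraries, against 727 ± 287 bp in day 0 (mean ± SD, n = 2), with adjusted p = 8.2e-05. ITGA2, a collagen receptor chain, fell to 1330 ± 236 bp in TKO, against 2199 ± 437 bp in day 0 (adjusted p = 0.00373). ICAM4, whose window overlaps that of ICAM1, had 1931.5 ± 769 bp in TKO, against 536 ± 328 bp in day 0 (adjusted p = 0.00921).

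Between the lines 19 of these 60 rose and 5 fell in KMS34, a share of 40% beside 40.8% of all genes. CDH17, the intestinal cadherin, had 1647 ± 207 bp in KMS34, against 72.5 ± 115 bp in KMS11 (SD, n = 6 each; limma adjusted p = 1.86e-07). CADM2, a neural relative of CADM1, had 4115 ± 934 bp in KMS34, against 969.8 ± 244 bp in KMS11 (adjusted p = 9.72e-08). ITGB5, another partner of the alpha V chain, had 2351 ± 333 bp in KMS34, against 4999 ± 1224 bp in KMS11 (adjusted p = 7.05e-09). NSD2LDD called none of the 60 in either line, where limma called 3 genes of all in KMS34 and 2 in KMS11, and 1201 and 702 at an unadjusted p under 0.05.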

How the data were processed

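ATAC-seq was run on 22 libraries, and the deposited file of each is its own list of called peaks. Per the submitters' processing notes, fastp, BWA, SAMtools, Picard, MACS3 and deepTools were used with hg38; the sources used here give no versions, settings, duplicate treatment or transposase shift. Each peak carries the authors' score, their fold enrichment as a ratio, their −log10 p and −log10 q, and the offset of its summit. The smallest deposited −log10 q is 2.00. The −log10 q served for ranks and filters inside each list and is printed for named peaks; the score, the deposited ratio and the −log10 p gave no result in the text. With no read counts, depth and its precision are unknown.

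Overlapping peaks of all libraries (22 autosomes and X) were joined, giving 96166 merged regions, and covered bases were counted per region and per gene body with 20 kb either side, using RefSeq positions of GRCh38.p14. Symbols of all 10 genes matched that table. It gives no exons, so exon and intron positions are not stated. Promoter sequences were matched for 6 of the 10 genes and are used for those alone. Strands of the others are not given in the tables used here, and their ends are named by coordinate. Values were log2 of covered length plus 200 bp (genes) or 100 bp (regions), less the library median over features covered in all libraries. Features covered in at least 2 libraries were fitted with limma 3.58.1 (trend, robust) in R 4.3.3, with a mean for each of 11 groups, and adjusted by Benjamini-Hochberg at 0.05. A log2 difference on this scale understates changes of short covered lengths. The 5 comparisons share libraries and 1 estimate of spread, and TKO and the lines are both set against KMS11 day 0.

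The genes, the list of 61 other adhesion genes and the tests were chosen with earlier results of these data known. Named were the 10 genes, their regions called in a comparison or in all libraries, the 3 other adhesion genes with the smallest p in each comparison, and the 2 genes most like each. Exceptions are regions named beside these, chosen after their values were seen. The covered-base count was checked against bedtools 2.31.1, and the fit was tested on simulated data. Python 3.11.15, numpy 2.4.6, pandas 2.3.3 and matplotlib 3.10.9 were used. Alternatives are given at the end.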

Additional observations from a re-analysis of the deposited data

Results flagged for a closer look

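Of 60 sets of 4 or 6 libraries (each gene in NSD2LDD or DMSO, or day 0 with DMSO, of a line), 5 held a library far from the rest by Dixon's criterion, and chance gives about 1 in 20. The sets mix days. VCAM1 had 314 covered bp in KMS34 NSD2LDD day 4 replicate 2 and 0 in the other 3 NSD2LDD libraries of KMS34. It had 0 bp in KMS11 day 0 replicate 2, against 171 to 257 bp in the other 5 libraries of KMS11 at day 0 or in DMSO. ITGA4 had 1124 bp in that same day 0 library, against 1416 to 1481 bp in the other 5, and this library has the shortest peak list. ITGA4 had 1039 bp in KMS11 NSD2LDD day 4 replicate 1, against 1470 to 1537 bp in the other 3 NSD2LDD libraries, and 1522 bp in KMS34 DMSO day 10 replicate 2, against 1767 to 1886 bp in the other 5 of its set.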

How the results depend on the processing

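The count of genes called in NSD2LDD against DMSO stayed at 0 in both lines under every alternative run, and so did regions, apart from 1 region in KMS34 without each of 2 DMSO libraries. For TKO against day 0, 3 genes were called; 0 were without scaling, 1 with lists of equal length, 1 with 1000 bp added, 1 with limma without trend and robust, 4 with −log10 q of 5 or more, and 1 to 3 with 1 library left out. CDH1 was called under each alternative except no scaling. The 4 regions became 2 with lists of equal length, 2 without scaling, 2 without trend and robust, 2 against day 0 and DMSO together, 5 with −log10 q of 5 or more, 0 when a region counted only if covered over 50% or more, and 3 to 4 with 1 library left out. For KMS34 against KMS11, 4 to 6 genes were called with 1 library left out and 3 to 6 otherwise, against 4, and 15 to 20 regions, against 19; 8 regions were called when 50% had to be covered.

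Deviations of same-numbered libraries correlated over genes by -0.11 to 0.26 in 5 pairs of groups, over 0.1 in 3 of the 5, short of the level set for pairing (over 0.1 in every pair). With replicate number as a block 3 genes and 3 regions were called in TKO and 4 genes and 18 regions between the lines; CDH2 region 2 in TKO (adjusted p = 0.0532) and ITGB3 region 1 between the lines (0.0541) lost their calls. Over all regions the block left 138 calls of 682 for NSD2LDD in KMS34.

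Signs turned for 4 values that had been called. ICAM1 region 3 was -0.067 in TKO when 50% had to be covered, and -1.61 between the lines with lists of equal length; VCAM1 between the lines was 0.41 with 50 kb either side, and its region 0.22 when 50% had to be covered. The cause was not tested. The other values that turned had not been called. With 50 kb either side NSD2LDD gave ICAM1 -0.039 in KMS11, and VCAM1 0.23 and ITGA4 -0.041 in KMS34, and TKO gave ITGB3 -0.23 (-0.25 with 5 kb). With lists of equal length NSD2LDD gave CDH1 0.023 in KMS11, and NCAM1 -0.72, ICAM1 0.47 and VCAM1 0.047 in KMS34, TKO gave ITGA4 -0.016, and the lines gave ITGB1 0.022 and ICAM1 -0.85, which passed there (adjusted p = 0.0198). With −log10 q of 5 or more NSD2LDD gave CDH1 0.016 and NCAM1 0.027 in KMS11 and VCAM1 0.032 in KMS34, and the lines gave ITGB1 0.051. Without scaling, the median log2 difference over all genes was 0.29 between the lines and 0.14 in TKO, against 0.03 and -0.04 with it. Unscaled, NSD2LDD gave CDH1 0.018 in KMS11, and the lines gave DSG2 0.086 and ITGB1 0.24. In DMSO libraries alone the lines gave ICAM1 -0.030 and ITGB1 0.068.

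Leaving out 1 library spanned 0 in these log2 ranges. NSD2LDD in KMS11 gave CDH1 -0.055 to 0.028, ICAM1 -0.072 to 0.086 and ITGA4 -0.21 to 0.028. In KMS34 it gave CDH1 -0.0091 to 0.12, DSG2 -0.28 to 0.17, NCAM1 -0.11 to 0.38 and VCAM1 -0.52 to 0.10. TKO gave DSG2 -0.65 to 0.080, ITGA4 -0.22 to 0.27 and ITGB3 -0.39 to 0.58, and the lines gave ITGA4 -0.027 to 0.13 and ITGB1 -0.10 to 0.059. Of 1386 such refitted values of single genes and regions 1274 kept direction and side of the threshold, and of 681 values under the other alternatives 590 did. TKO rests on 2 libraries against 2, and a left-out library leaves 1, assumed to vary like the other groups. Peak calls without depth limit every statement on missing peaks. The comparison of TKO with DMSO added, and that of lines in DMSO alone, were chosen after seeing the data.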

Other observations

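Genes whose scaled covered length was most like that of each adhesion gene over all 22 libraries, leaving out genes within 1000 kb, are given with Pearson's r as a description. The points share 2 lines, and both values of a point come from 1 peak list. CADM1 was closest to CD8B2 (r = 0.962) and MSI2 (0.953), CDH2 to RIMS1 (0.957) and HS6ST3 (0.953), and CDH1 to SPACA3 (0.928) and ZMAT4 (0.920). ITGB3 was closest to SULF2 (0.928) and ADGRB2 (0.925), NCAM1 to BMP4 (0.909) and LOC124903317 (0.909), and ICAM1 to SLC46A1 (0.886) and TJAP1 (0.847). For VCAM1 the closest were IGFL3 (0.864) and PMEPA1 (0.816), for ITGA4 SLC66A3 (0.856) and TMA16 (0.851), and for ITGB1 TCF21 (0.775) and IL23R (0.745). DSG2 had the weakest likeness, to NTN1 (0.713) and C9orf50 (0.652).

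Against day 0 and DMSO libraries together, TKO gave 5 calls among the 60 other adhesion genes, 1 higher and 4 lower, a share of 8.33% beside 6.16% of all genes (0.966% higher and 5.20% lower). Some of these genes share windows with the genes chosen by name, so this share is not that of an independent set. NECTIN1, which binds in trans at adherens junctions, had 2933 ± 143 bp in TKO (n = 2), against 1772.5 ± 474 bp in those KMS11 libraries (SD, n = 6; limma adjusted p = 0.00333). NCAM2 was again uncovered in TKO, against 917 ± 215 bp (adjusted p = 5.87e-06), and ITGA2 had 1330 ± 236 bp in TKO, against 2466.5 ± 351 bp (adjusted p = 0.00323).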
